A study of Rattus norvegicus with 6 samples.

Results

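The 7 myosin heavy chain genes described here are Myh3, Myh6, Myh7, Myh7b, Myh9, Myh10 and Myh15, out of 19591 genes with a symbol on the array. They were found as all probes that carried these gene names and were not control spots, which gave 8 probes, with 2 for Myh3 and 1 for each of the others. The genes were chosen with earlier results of the same comparison known, and Myh15 was chosen on its fall, so their differences between the groups are given as a description with no test. Expression was measured in the heart primordium of rat embryos of the Wistar strain, spelled Wister in the labels, at embryonic day 10, the day on which the heartbeat starts. The pre-heartbeat group had 3 samples and the post-heartbeat group had 3 samples, each on 1 array with 1 color, with no treatment or altered allele named for either. Before heartbeat the center of the primordium had a flat shape, and after heartbeat it was raised. How many embryos made up a sample on an array is not given in the sources used here, and differences between samples of a group may be technical.

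A myosin heavy chain forms the motor head and the long tail of a myosin molecule. In muscle the tails pack into the thick filament of the sarcomere, and the heads pull on actin by splitting ATP, helped by light chains bound at the neck. Myh6 encodes the fast α chain and Myh7 the slow β chain of heart muscle, and the 2 genes lie next to each other. Myh7b is an older sarcomeric relative of them, Myh3 is best known as the embryonic chain of skeletal muscle, and Myh15 is an ancient sarcomeric-type chain. Myh9 and Myh10 encode the non-muscle chains IIA and IIB, which drive cell division, cell shape and movement.

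The probes show which part of each gene was read. They were compared with each other, and none was compared with the transcript of another gene. All 18 probes for 14 myosin heavy chain genes on the array had 60 bases. In the 153 pairs of these probes, 1 pair shared an exact run of at least 16 bases, Myh6 with the brighter probe of Myh13, an eye muscle chain. Among all probes on the array no other shared such a run with a probe of the 7 genes. The probes of the 4 genes whose arrays did not overlap between groups are shown with those of Myh13 and Myh8, a perinatal skeletal chain, from the 5′ end. Capitals mark the longest run shared with the Myh6 probe, and in the Myh6 probe the run shared with Myh13.
Myh6: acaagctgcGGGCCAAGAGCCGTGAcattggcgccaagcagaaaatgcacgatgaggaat
Myh13: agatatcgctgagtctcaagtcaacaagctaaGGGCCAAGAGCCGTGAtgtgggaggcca
Myh8: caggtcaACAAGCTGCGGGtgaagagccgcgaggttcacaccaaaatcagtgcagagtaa
Myh7: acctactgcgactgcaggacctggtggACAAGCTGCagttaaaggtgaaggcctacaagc
Myh7b: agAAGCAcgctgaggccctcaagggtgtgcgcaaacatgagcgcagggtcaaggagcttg
Myh15: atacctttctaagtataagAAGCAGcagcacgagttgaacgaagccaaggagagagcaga

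The run shared with Myh6 was 16 bases in Myh13, 12 in Myh8, 9 in Myh7, 6 in Myh15 and 5 in Myh7b. Laid over each other without gaps, the Myh6 and Myh13 probes matched at 29 of 37 bases, and the Myh6 and Myh8 probes at 32 of 53. The Myh7 probe reads another stretch of its gene than the Myh6 probe, with 15 of 33 bases matching at best.

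In the array annotation, on the rn4 genome, the Myh6 probe lies at chr15:33044576-33044983 on the minus strand, which is 408 bases for a probe of 60, so it crosses a splice junction. The Myh7 probe lies 28897 bases away at chr15:33073880-33073939, on the same strand. The Myh7b probe is at chr3:146138435-146138494 on the plus strand, and the Myh15 probe at chr11:52859766-52859825 on the minus strand. The Myh9 probe spans chr7:115681702-115682586, minus strand, 885 bases, and so also crosses a junction. The Myh10 probe is at chr10:55576035-55576094, plus strand, and the Myh3 probes are at chr10:53800570-53800629 and chr10:53800042-53800098, plus strand. The annotation places no exon or intron borders, so these are not given. The transcript named for the probe matched a RefSeq gene of the same symbol for 6 of the 7 genes. For Myh15 it did not, and RefSeq also lists a gene named Myh15l1 on that chromosome, so which of the 2 the probe reads is uncertain.

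Of 58717 spots per array, the scanner software marked 39375 to 41147 as well above background before heartbeat and 39803 to 41327 after it, and 0 as saturated. The arrays lay on 2 slides, slide 1 with replicate 1 of the pre-heartbeat group beside replicates 1 and 2 of the post-heartbeat group, and slide 2 with the others. Values below are log2 signals less the 75th percentile of their array, and a difference is post-heartbeat minus pre-heartbeat. The level of 1 probe cannot be set against that of another, as probes bind unequally. All 7 marker genes of heart muscle (Nkx2-5, Tnnt2, Actc1, Tnni1, Myl7, Ttn and Ryr2) were well above background on every array. So were all 5 smooth muscle markers, all 6 endothelial markers, and 18242 of the 30367 probes. Detection alone therefore does not set heart muscle apart. In whole tissue, a change in the number of cells of a type and a change in RNA per cell cannot be told apart.

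The α and β chains of heart muscle were higher on every post-heartbeat array. The Myh6 probe read 5.31, 5.43 and 6.01 before heartbeat and 6.36, 6.35 and 6.80 after heartbeat. All 3 post-heartbeat values lay above all 3 pre-heartbeat values. The mean went from 5.58 ± 0.37 to 6.50 ± 0.26 (SD, n = 3), a difference of 0.92 (SE 0.26), or 1.89-fold. It was 1.04 within slide 1 and 1.08 within slide 2. Each difference within a slide rests on a single array of 1 group, pre-heartbeat on slide 1 and post-heartbeat on slide 2.

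The Myh7 probe read 3.90, 3.83 and 4.39 before heartbeat and 5.05, 5.07 and 5.34 after heartbeat. Here too the groups were apart, and in each group the array that was highest for Myh6 was also highest for Myh7. The mean went from 4.04 ± 0.31 to 5.15 ± 0.16 (SD, n = 3), a difference of 1.11 (SE 0.20), or 2.16-fold, with 1.16 within slide 1 and 1.23 within slide 2. The 2 probes moved nearly alike. On an array, the log2 value of Myh7 less that of Myh6 was -1.41, -1.60 and -1.61 before and -1.31, -1.28 and -1.46 after heartbeat, a change of 0.19 between the group means. The groups overlapped in it over all arrays, while on either slide the post-heartbeat arrays lay above the pre-heartbeat ones, by 0.11 and 0.15 on average. This change was not tested.

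Myh7b, the third sarcomeric chain with a higher level after heartbeat, gave a weaker signal from a single spot on each array. It read -3.66, -4.31 and -3.30 before and -2.65, -2.72 and -2.30 after heartbeat, well above background on all 6 arrays. The groups did not overlap, and pre-heartbeat replicate 2 was the lowest array. The mean went from -3.75 ± 0.51 to -2.56 ± 0.23 (SD, n = 3), a difference of 1.20 (SE 0.32), or 2.29-fold. The difference was 0.97 within slide 1 and 1.5 within slide 2, and 0.78 when the background was taken off with the normexp model instead of by the scanner software. Relative to Myh6 on the same array it changed by 0.28, with overlapping groups, and by -0.08 within slide 1 and 0.42 within slide 2.

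**Figure D1:**
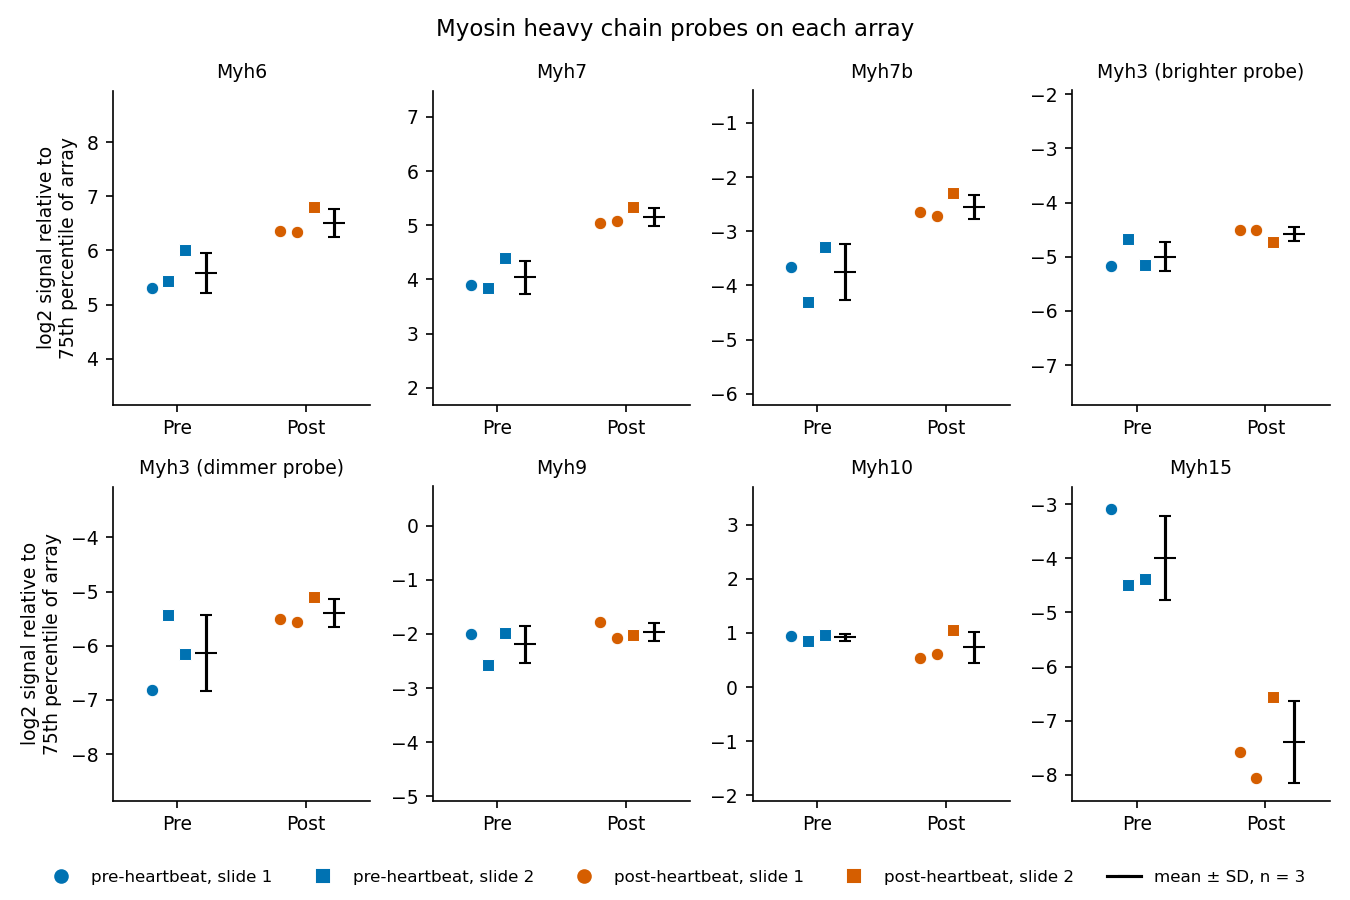
Each panel shows 1 probe, with the log2 signal less the 75th percentile of its array on the vertical axis (all panels span the same number of log2 units) and the pre-heartbeat and post-heartbeat groups on the horizontal axis. Points are arrays, circles slide 1 and squares slide 2, and bars are mean ± SD (n = 3). The post-heartbeat arrays lie above the pre-heartbeat arrays for Myh6, Myh7 and Myh7b, below them for Myh15, and overlap them for Myh3, Myh9 and Myh10.

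Of the 7 markers of heart muscle, 6 had a positive difference. Their median difference was 0.56, against -0.03 over all 19297 tested probes, and their summed signal, where 1 is the 75th percentile of the array, ranged from 310 to 562 before and from 554 to 661 after heartbeat. Of these markers, Tnni1 and Myl7 were higher on every post-heartbeat array, as were 5.38% of all tested probes. The part of a larger share of muscle cells in the differences of Myh6, Myh7 and Myh7b was not tested.

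Myh3, the embryonic skeletal chain, was dim and did not separate the groups. Its brighter probe went from -5.0 ± 0.27 to -4.58 ± 0.13 (SD, n = 3), a difference of 0.42 (SE 0.17). It read between -5.16 and -4.68 before and between -4.73 and -4.50 after heartbeat, and pre-heartbeat replicate 2 lay above 1 post-heartbeat array. The dimmer probe went from -6.13 ± 0.70 to -5.39 ± 0.26, a difference of 0.74 (SE 0.43), and was well above background on 1 pre-heartbeat and all 3 post-heartbeat arrays. Both probes had a positive difference, with overlapping arrays. The skeletal muscle genes Myod1, Myf6 and Pax7 were not well above background on any array, while Myog and Myf5 were on all 6. The summed signal of these 5 genes ranged from 0.173 to 0.215 before and from 0.188 to 0.263 after heartbeat.

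The non-muscle chains overlapped between the groups. Myh9 read between -2.58 and -1.98 before and between -2.08 and -1.78 after heartbeat, with means of -2.19 ± 0.34 and -1.96 ± 0.16 (SD, n = 3). The difference was 0.23 (SE 0.22). Myh10 read between 0.84 and 0.96 before and between 0.54 and 1.06 after heartbeat. Its means were 0.92 ± 0.06 and 0.74 ± 0.28, a difference of -0.18 (SE 0.17). For Myh10 the direction depended on the slide, with -0.38 within slide 1 and 0.16 within slide 2. The 2 non-muscle chains thus had differences of opposite sign, each close to its SE. The value of Myh10 less that of Myh9 changed by -0.41, with overlapping arrays.

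Myh15 was the only one of the 7 genes that was lower on every post-heartbeat array. Its probe, a single spot on each array, read -3.09, -4.49 and -4.39 before heartbeat, well above background on all 3 arrays. After heartbeat it read -7.57, -8.06 and -6.57 and was not well above background on any array. In units of the scanner the signal was 197, 51.0 and 70.6 before and 6.62, 5.30 and 17.8 after heartbeat. The groups lay far apart, yet the low group sat at the floor of the array and the high group was itself dim.

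The mean of Myh15 went from -3.99 ± 0.78 to -7.40 ± 0.76 (SD, n = 3), a difference of -3.41 (SE 0.63). The post-heartbeat values were at background, so the size of the fold is uncertain. With low values raised to the lowest signal well above background on their array, the post-heartbeat mean was -6.94. Against this mean Myh15 was 7.73-fold lower after heartbeat. This is not a lower limit. Post-heartbeat replicate 3 read -6.57, above its array's lowest such signal of -7.37, and was still not well above background. The difference was -4.72 within slide 1 and -2.13 within slide 2, and -0.99 after the normexp correction with its offset of 50, which pulls weak signals together. The size of the fall therefore depended on how the background was treated, and its direction did not under the settings tried.

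The summed signals of the markers of 3 other tissues were lower on the post-heartbeat arrays. The sum over the 7 endoderm markers on the array ranged from 46.5 to 49.0 before and from 30.03 to 38.6 after heartbeat. Over 5 neural markers it ranged from 6.38 to 7.35 and from 2.47 to 3.01, and over 6 endothelial markers from 15.6 to 16.7 and from 10.8 to 12.5. In each of these lists 1 gene had groups that did not overlap, which was Ttr, a carrier of thyroid hormone, among the endoderm markers (-0.58), Otx2, a forebrain factor, among the neural ones (-1.56) and Kdr, a receptor of vascular endothelial growth factor, among the endothelial ones (-0.55). These 3 genes also had the strongest signal of their lists, so each sum was mostly the signal of 1 gene. Some markers in the same lists had positive differences, such as Afp (0.24), Zic2 (0.13) and Tie1 (0.50). Of all these genes limma called Otx2 lower, as it did 0.0207% of all tested probes. None of the 3 marker sums overlapped between the groups, and their part in the fall of Myh15 was not tested. Of 3 paraxial mesoderm markers that were tested, limma called 0, against 0.124% of all tested probes as higher and 0.0207% as lower. In so short a list a count of 0 is near the background. The sum over all 6 on the array ranged from 13.3 to 15.6 before and from 15.9 to 17.3 after heartbeat. For 6 erythroid markers the sum ranged from 0.649 to 1.49 and from 1.69 to 1.92. The strongest signals in these lists were those of Tcf15 (difference 0.19) and Hbb (1.22), while the erythroid markers Klf1 and Alas2 had differences of -0.25 and -0.61.

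**Figure D2:**
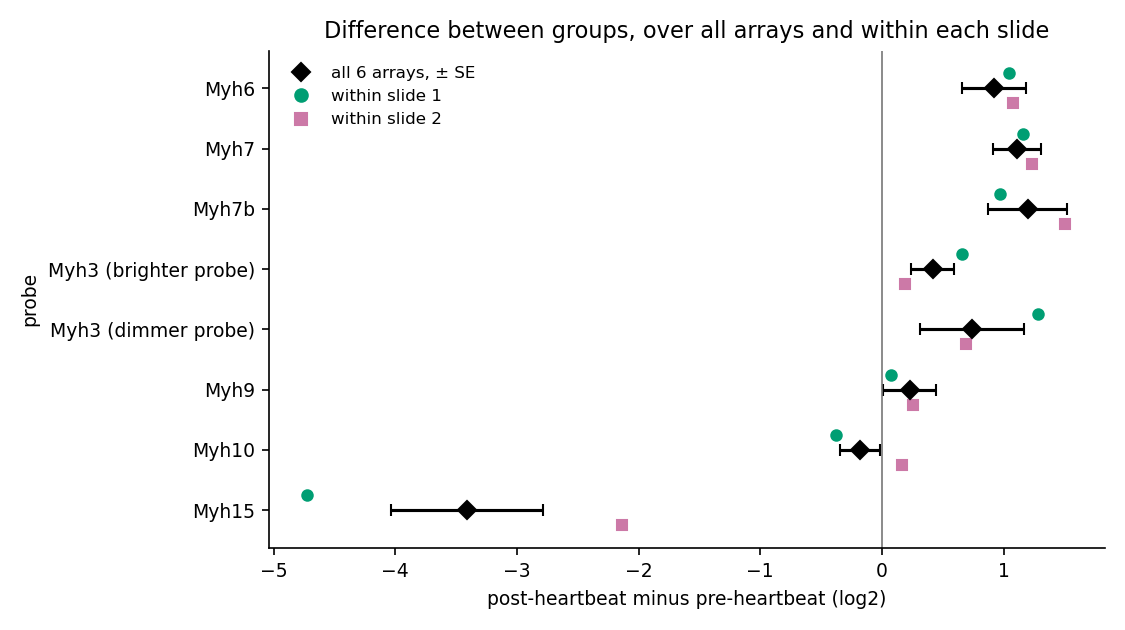
Difference between the groups (post-heartbeat minus pre-heartbeat, log2, horizontal axis) for each of the 8 probes (vertical axis), over all 6 arrays with its SE (diamonds) and within each slide (circles and squares). Myh6 and Myh7 differ by 1.04 to 1.23 within either slide, Myh10 is below 0 on slide 1 and above it on slide 2, and Myh15 lies at -4.72 and -2.13.

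These members were chosen by this contrast, so counts of calls among them are only set beside those of the whole array. On every post-heartbeat array 3 of the 7 genes were higher than on every pre-heartbeat array, as were 5.38% of all tested probes, and 1 was lower on every array, as were 6.17%. The methods of the study state a selection of genes at least 1.5-fold higher with a p below 0.05. Applied here in both directions, with the p taken without adjustment, it held 1.9% of tested probes as higher and 1.16% as lower, and among the 7 genes it held Myh6, Myh7 and Myh7b as higher and Myh15 as lower. The limma fit called 0.124% of probes higher and 0.0207% lower, and 0 of the 7 genes. When slide was added as a block it called 1.09% higher and 0.42% lower, among them Myh6 and Myh7 as higher and Myh15 as lower. As the 7 genes were chosen by this contrast, none of these calls is a test of their differences.

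A comparison that played no part in the choice of the genes is that between the slides. With the group kept as a term, limma called 16.1% of tested probes different between slide 2 and slide 1, and 0 of the 7 genes. The difference was 0.43 (SE 0.20, limma adjusted p = 0.138) for Myh6, 0.25 (adjusted p = 0.358) for Myh7 and 0.22 (adjusted p = 0.371) for Myh10. For the other genes it lay between -0.19 and 0.12, with adjusted p of at least 0.529. The dimmer Myh3 probe had the lowest adjusted p of the 8 probes, at 0.0641, with a difference of 0.74.

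Across the 6 arrays the heart chains had nearly the same pattern, as a description of arrays that share 2 groups and 2 slides. Pearson's r was 0.979 between Myh6 and Myh7, 0.967 between Myh7 and Myh7b, and 0.934 between Myh6 and Myh7b. After the mean of each group was taken off, r was 0.964, 0.861 and 0.720 for the same pairs. Among 12876 other genes with a tested probe, the pattern of Myh7 was most like that of Mybpc3 (r = 0.998), the cardiac myosin-binding protein C. Next were Myh13 (0.997) and Mybph (0.989), a related myosin-binding protein that was not well above background on any pre-heartbeat array. For Myh6 the nearest were Ankrd45 (0.984), LOC688173 (0.982) and Mybpc3 (0.982). For Myh7b they were Ptrf (0.988), a protein of caveolae, Dip2a (0.987) and Ppargc1b (0.987), a coactivator of mitochondrial genes.

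Myh15 was not well above background on any post-heartbeat array, so its correlations rest partly on background signal. The nearest patterns to it were those of Prss8 (0.994), a membrane protease, L1td1 (0.993), a gene of pluripotent cells, and Neo1 (0.990), the receptor neogenin. Their own differences were -0.33, -0.77 and -0.29. For Myh9 the nearest were Nf2 (0.997), Lrp1 (0.993) and Wdr81 (0.991), and for Myh10 Pdzd8 (0.990), Epb49 (0.987) and Ccr9 (0.984). For Myh3 they were S100a16 (0.992), Olr1688 (0.991) and l7Rn6 (0.991). With 6 arrays between 115 and 398 genes reached r above 0.9 with each member, so a high value is common.

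Of 4 other myosin heavy chains that were tested, Myh8, Myh11 and Myh13 had higher values on every post-heartbeat array, as had 5.38% of all tested probes. The median difference of the 4 was 1.04, and limma called 0 of them with no block. Adding the slide as a block gave 2 higher calls, Myh11 and Myh13, against 1.09% of all tested probes. The selection of the methods held 3 as higher, against 1.9% of all tested probes. Myh11 is the smooth muscle chain, and both of its probes had a difference of 0.94, with means of -1.92 ± 0.14 and -0.97 ± 0.16 (SD, n = 3) at the brighter one. Its limma adjusted p was 0.0977, and 0.0160 with the slide as a block, so it was called with the block alone. Acta2, Tagln and Cnn1, smooth muscle markers that young heart muscle cells are known to express too, had differences of 1.07, 1.04 and 1.12. With Myh11 and Smtn, the 5 smooth muscle markers had a summed signal from 4.78 to 5.21 before and from 7.82 to 10.2 after heartbeat, and the part of such cells in the values of the heart chains was not tested. Myh14, a non-muscle chain, went from -5.05 ± 0.27 to -4.91 ± 0.39, a difference of 0.14, with overlapping arrays. The probes of the adult skeletal chains Myh1, Myh2 and Myh4 were too dim to be tested, and no probe carried the name Myh16.

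Myh8 read 2.74, 1.40 and 2.35 before and 4.04, 4.10 and 3.08 after heartbeat, a difference of 1.58 (SE 0.52) with a limma adjusted p of 0.298, and 0.0509 with the slide as a block. It was the one chain of these that differed between slides, by -0.93 (adjusted p = 0.0386). The brighter Myh13 probe read 3.81, 3.59 and 4.22 before and 4.88, 4.92 and 5.26 after heartbeat, a difference of 1.15 (SE 0.22), with an adjusted p of 0.120, and 0.0278 with the slide as a block. The second Myh13 probe, named for another transcript, was well above background on 1 array of each group and went from -6.81 ± 0.65 to -7.11 ± 0.89. The 2 probes of Myh13 thus disagreed. The brighter one holds the run of 16 bases shared with Myh6 and followed Myh7 from array to array, and whether it or the Myh8 probe also bound RNA of the heart chains was not tested.

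**Figure D3:**
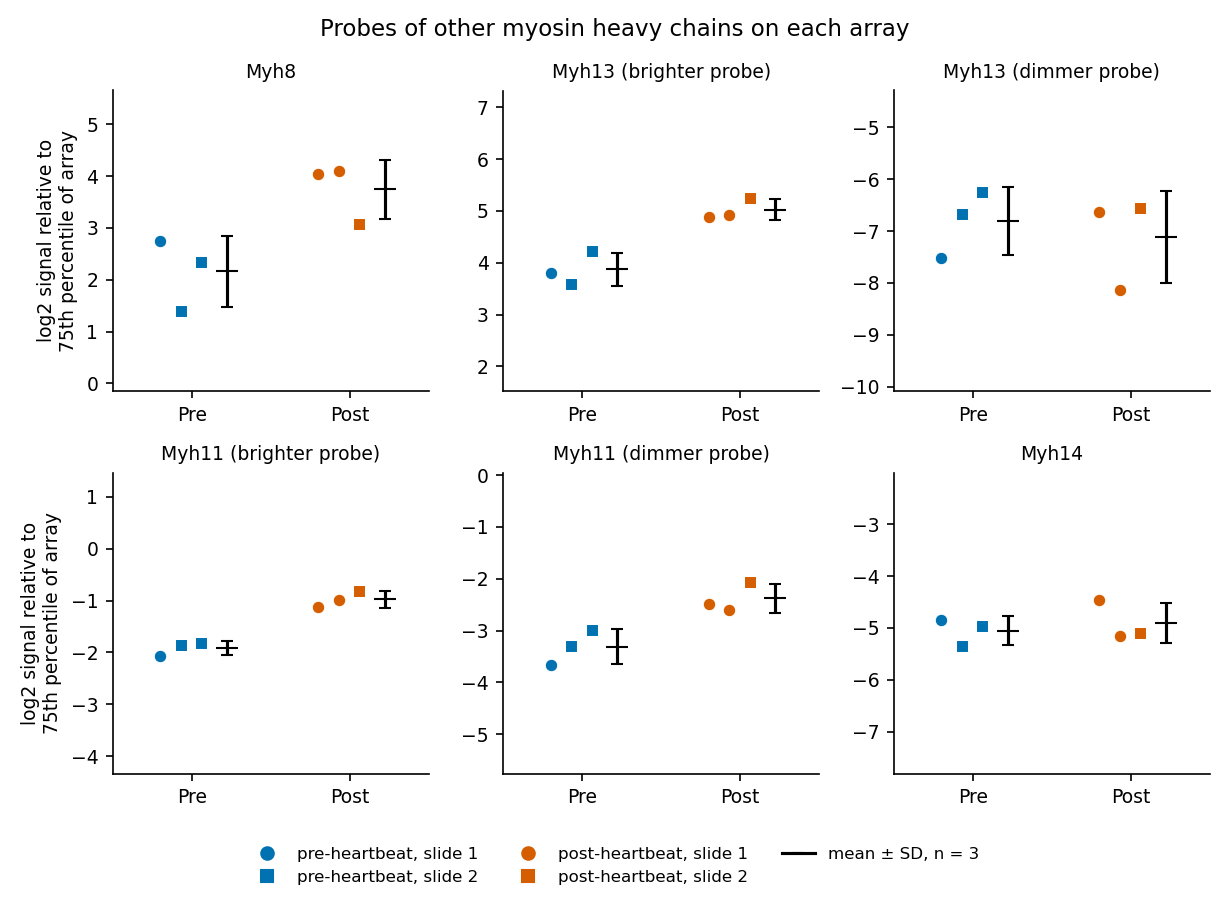
Log2 signal less the 75th percentile of its array (vertical axis) for 6 probes of 4 other myosin heavy chains in the pre-heartbeat and post-heartbeat groups (horizontal axis), with arrays as points (circles slide 1, squares slide 2) and mean ± SD (n = 3). Both Myh11 probes and the Myh8 and brighter Myh13 probes are higher on every post-heartbeat array, whereas the dimmer Myh13 probe lies near -7 in both groups.

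Light chains bind the neck of the heavy chain, and 8 of the 9 tested had a positive difference. Of the 9, limma called 1 higher and 0 lower, against 0.124% and 0.0207% of all tested probes. With the slide as a block it called 6 higher and 0 lower, against 1.09% and 0.42%. The median difference of the 9 was 0.996. Myl2, the regulatory light chain of the ventricle, rose most, from -3.31 ± 0.27 to 0.15 ± 0.12 (SD, n = 3), a difference of 3.46 (SE 0.17) or 10.99-fold, with a limma adjusted p of 0.00463. It read -3.11, -3.62 and -3.20 before and 0.06, 0.28 and 0.10 after heartbeat.

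The essential light chains Myl3 and Myl4, of ventricle and of atrium and embryo, had differences of 1.22 and 0.996, with adjusted p of 0.0692 and 0.115, and 0.0188 and 0.0338 with the slide as a block. Myl9, of smooth muscle, and Mylpf, of fast skeletal muscle, had differences of 0.78 and 1.05 and were called with the block alone (adjusted p = 0.0313 and 0.0255). Myl1, of fast skeletal muscle, was not well above background on any pre-heartbeat array (limma adjusted p = 0.194, and 0.0437 with the block). Set against the lowest signals well above background, it was 2.69-fold higher after heartbeat, which is not a lower limit. With the normexp background its difference was 0.27. Myl6, the light chain of non-muscle myosin, had a difference of 0.00, and Myl7, of the atrium, one of 0.61 that was not called.

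Of 14 tested genes that build or maintain the thick filament, 12 had a positive difference. Among the 14, limma called 1 higher and 0 lower, against 0.124% and 0.0207% of all tested probes. With the slide as a block it called 8 higher and 0 lower, against 1.09% and 0.42%. The median difference of the 14 was 0.87. Trim54, a ubiquitin ligase of the sarcomere, rose from -2.47 ± 0.14 to -0.56 ± 0.05 (SD, n = 3), a difference of 1.90 (SE 0.09), with a limma adjusted p of 0.0172. Its relatives Trim55 and Trim63 had differences of 0.87 and 1.16 and were called with the block alone (adjusted p = 0.0227 and 0.0157).

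Among the proteins that bind the filament, Mybpc3 had a difference of 1.03 (adjusted p = 0.0212 with the block) and Mybphl one of 1.31 (0.0177). Mybph was not well above background before heartbeat and was called with the block (0.0160). Set against the lowest signals well above background it was 2.06-fold higher after heartbeat, while with the normexp background its difference was 0.19. Myom1, which crosslinks thick filaments at the M-line, had a difference of 0.81 (0.0182 with the block). Unc45b, the chaperone that folds muscle myosin heads, had a difference of 0.86 (0.0201 with the block). The general chaperones Hsp90aa1 and Hsp90ab1, which work with it, and the non-muscle form Unc45a had differences of -0.19, -0.26 and 0.04 and were not called in either fit. Smyd1, a methyltransferase of muscle that acts in myofibril assembly, had a difference of 0.59 and met the selection of the methods only.

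Leaving out 1 array changed the calls made with the slide as a block. Without pre-heartbeat replicate 1, 1 light chain and 0 thick filament genes were called, without post-heartbeat replicate 3, 0 and 0, and without post-heartbeat replicate 1, 1 and 6. Pre-heartbeat replicate 1 is the only array of its group on slide 1, as is post-heartbeat replicate 3 on slide 2. Without either of them, the group difference in this fit rests on the arrays of 1 slide. In the fit with no block, Myl2 had adjusted p of 0.0584, 0.0644 and 0.0543 without pre-heartbeat replicate 3, post-heartbeat replicate 1 and post-heartbeat replicate 2. Trim54 had adjusted p between 0.0574 and 0.196 without any 1 of the 6 arrays.

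Genes listed as regulators of non-muscle myosin had a median difference of 0.05. The list also holds Mylk2 and Mylk3, kinases of skeletal and heart muscle, with differences of -0.01 and 0.26. Of 15 tested, including the kinases Rock1, Rock2 and Mylk and the phosphatase subunits Ppp1r12a and Ppp1cb, 0 were called in either fit or held by the selection of the methods. Among all probes those shares were 0.124% higher and 0.0207% lower in the fit with no block, 1.09% and 0.42% with it, and 1.9% and 1.16% by the selection, so in a list of this size a count of 0 is near the background. Their differences ran from -0.33 (Mylk) to 0.91 (Dapk3), with overlapping arrays for all 15. The 16 tested unconventional myosins had a median difference of -0.14, with 7 positive and 9 negative. On every post-heartbeat array 4 of them were higher and 3 lower, beside 5.38% and 6.17% of all tested probes. With the block 2 were called higher, against 1.09% of all tested probes. These were Myo16, which went from -5.77 ± 0.58 to -3.47 ± 0.17 (SD, n = 3; adjusted p = 0.0545, and 0.0156 with the block), and Myo18b, a muscle form needed for sarcomeres, which went from -1.46 ± 0.38 to -0.16 ± 0.19 (0.110, and 0.0289 with the block). Myo5a and Myo5b, carriers of vesicles, had differences of -0.77 and 0.74 and met the selection of the methods only.

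Transcription factors and cofactors that are known to act on cardiac myosin genes had a median difference of 0.22. Of 21 tested, limma called 0 with or without the block and the methods' selection held 0. In a list of this size that is again near the shares of all probes. In the list 15 genes had a positive difference and 6 a negative one, among them Sox6 (-0.76) and Tbx20 (-0.45), both with overlapping arrays. Nkx2-5 had a difference of 0.67, Gata4 of 0.62, Mef2c of 0.04, Tbx5 of 0.45, Srf of 0.44 and Myocd of 0.22, with overlapping arrays for all but Tbx5 among these. In Hopx and Rxra too, with differences of 0.47 and 0.46, every post-heartbeat array lay above every pre-heartbeat array. These 3 of the 21 stand beside 5.38% of all tested probes.

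**Figure D4:**
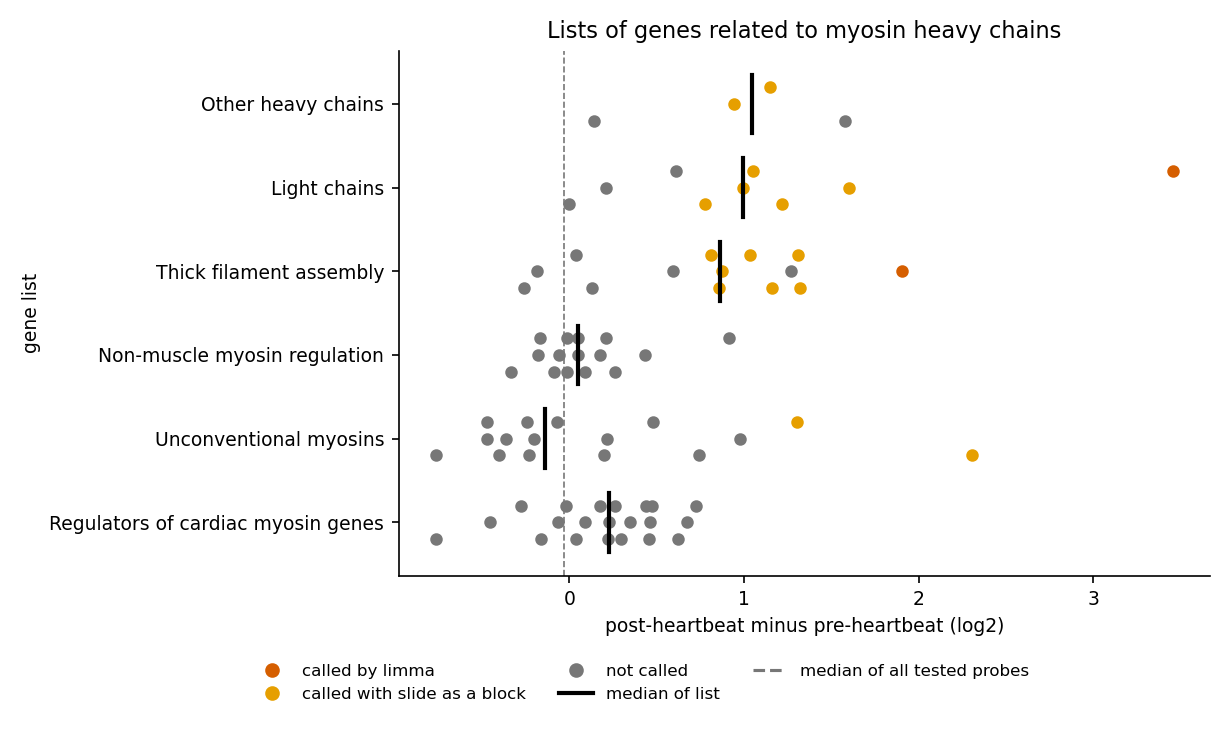
Difference between the groups (log2, horizontal axis) for the tested genes of 6 lists (vertical axis), colored by whether limma called them without the slide as a block, only with it, or not at all. Black bars are list medians, 0.996 for light chains and 0.05 for non-muscle myosin regulation, and the dashed line is the median of all tested probes, -0.03.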

How the data were processed

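Total RNA from heart primordia was labeled as Cy3 cRNA and hybridized by the authors to 1-color Agilent rat arrays, read with Feature Extraction 10.7.3.1. The deposited scanner values are a background-subtracted intensity per spot, before any normalization. A second deposited file holds a ratio per probe, shifted to the 75th percentile and divided by a baseline in GeneSpring. For 100% of 30363 probes with all values, its array-to-array differences matched those of the scanner values to 0.01 (log2) after a constant for each array, so its scale is linear and its direction known, while the baseline per probe stays unknown and cancels between groups. The median ratio per array was 0.935 to 1.10.

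Here control spots and spots marked as outliers were left out, the log2 of the 75th percentile of each array (1143 to 1694 intensity units) was subtracted from the log2 intensity, and spots of a probe were averaged. A probe was tested if the 3 arrays of either group all had it well above background (19297 of 30367), and all 8 probes of the myosin heavy chains were among them. Groups were compared with limma 3.58.1 in R 4.3.3, with Benjamini-Hochberg adjustment and a threshold of 0.05. In the fit, 1350 probes had an unadjusted p under 0.05. The slide, read from the file headers, was used as a block as an alternative and as a contrast of its own. A gene of a list is its brightest tested probe. The scripts were tested on simulated data. The number of arrays limits the precision. SE are those of the linear model before moderation.

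The 7 genes and all lists were chosen with earlier results of these data known. Named beside them are the genes of each list called by limma without or with the block, up to 4 more with the largest difference in the methods' selection, and the 3 genes most correlated with each of the 7. Other genes, such as the regulators and chaperones, were named for their role or, for Sox6 and Tbx20, for a negative difference, after their values were seen. Where a group was at background on all arrays, a fold is set against the lowest signal well above background and is not a lower limit.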

Additional observations from a re-analysis of the deposited data

How the results depend on the processing

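Over 14 alternatives per gene, the difference of each of the 7 genes kept its sign, and it moved by more than the spread between replicates only with the normexp background correction, to -0.99 for Myh15, 0.15 for Myh3 and 0.78 for Myh7b. The range was 0.77 to 1.13 for Myh6, 1.01 to 1.29 for Myh7, 0.03 to 0.33 for Myh9 and -0.34 to -0.08 for Myh10. Deviations of arrays with the same replicate number had correlations of 0.648, -0.277 and 0.494. The arrays of replicate 1 shared a slide, as did those of replicate 3, while those of replicate 2 did not. These values therefore do not settle whether the numbers pair the arrays. The replicate block left the differences as they were and called 110 probes higher and 56 lower.

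The number of probes called by limma, 24 higher and 4 lower, became 211 and 81 with the slide as a block, 38 and 7 with an intensity trend, 1 and 0 with no filter on dim probes, and 0 and 0 by the test of the methods after Benjamini-Hochberg adjustment. The higher calls became 43 with normexp, 11 with quantile normalization and 10 with the ratios of the authors. Without any 1 array limma called 0 to 1 higher and 0 to 1 lower. The selection of the methods, 366 higher and 223 lower, became 203 and 78 with normexp and 149 and 83 at a fold of 2. Its lower count became 427 with no filter and 346 with the limma p. Without 1 array it ran from 241 to 401 higher (lowest without post-heartbeat replicate 2) and from 123 to 358 lower, with 123, 126 and 358 without post-heartbeat replicate 2, pre-heartbeat replicate 3 and post-heartbeat replicate 3. The 3109 probes called between slides became 244 to 3710 without 1 array, with 244, 725 and 1477 without post-heartbeat replicate 3, pre-heartbeat replicate 1 and post-heartbeat replicate 1. Without post-heartbeat replicate 3 or pre-heartbeat replicate 1, 1 slide holds a single group, and the slide difference rests on the arrays of that same group. The causes were not tested. Of 38 genes followed from the lists, 34 kept their sign under the 12 alternatives run for them, which were chosen after seeing the data. The others had differences near 0. Myl6 changed sign with normexp (0.0106), quantile normalization (0.13), the slide as a block (0.15) and 4 of the arrays left out (-0.23 to 0.13), Unc45a with the slide as a block (-0.0765) and 3 of the arrays left out (-0.12 to 0.15). Leaving out 1 array gave -0.0805 to 0.27 for Myh14 and -0.16 to 0.21 for Mef2c.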
